A study of Homo sapiens with 6 samples.

Results

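The CDK inhibitor genes are 8 genes whose products restrain the cyclin-dependent kinases: CDKN1A, CDKN1B and CDKN1C of the Cip/Kip family, CDKN2A, CDKN2B, CDKN2C and CDKN2D of the INK4 family, and the phosphatase gene CDKN3. They were taken from the array by name: a probe set belonged to a gene when the platform annotation gave that gene alone. This found all 8 genes, on 65 of 224320 probe sets that name 1 gene, out of 18656 genes in all. Each gene's value per array is the average of the log2 values of its probe sets.

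The arrays were made from AGS cells, an established human gastric adenocarcinoma line. One group of 3 arrays came from cells given an anti-miR inhibitor of miR-25-3p, and the other group of 3 from cells given a non-targeting control RNA. Both groups were transfected with a lipid reagent, again after 24 h, and were harvested 48 h after the first transfection. No group without transfection was analysed here, and the arrays do not measure mature microRNAs.

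Cyclin-dependent kinases drive cells from one cell cycle phase to the next when bound to a cyclin. Cip/Kip proteins bind cyclin-CDK complexes and hold back CDK2 in particular. INK4 proteins bind CDK4 and CDK6 and keep D-type cyclins from activating them. A microRNA lowers messages that pair with its seed, the bases near its 5′ end, so an inhibitor may raise them. CDKN1C is a reported target of miR-25 in gastric cancer cells, and CDKN1A is a reported target of miR-93 and miR-106b, which are made from the same host gene, MCM7.

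The mature sequences show which microRNAs share that seed and which do not. The first set, from RefSeq (GRCh38.p14), is miR-25-3p and every other mature microRNA of that table with its seed, 6 names at 7 loci. Capitals mark bases 2 to 8, the seed.
hsa-miR-25-3p: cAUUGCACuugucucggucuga
hsa-miR-92a-3p: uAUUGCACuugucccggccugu
hsa-miR-92b-3p: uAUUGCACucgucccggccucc
hsa-miR-32-5p: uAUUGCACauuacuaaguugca
hsa-miR-367-3p: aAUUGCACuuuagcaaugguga
hsa-miR-363-3p: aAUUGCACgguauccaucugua

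Counted position by position from the 5′ end, miR-92a-3p has the same base as miR-25-3p at 18 of 22 positions, miR-92b-3p at 16, miR-32-5p at 13, miR-367-3p at 12 and miR-363-3p at 9. The gene of miR-25-3p lies on the minus strand of chromosome 7, with the mature form at chr7:100093571-100093592. The other 2 microRNAs of the same host gene are shown because CDKN1A is linked to them. They share the seed AAAGUGC with each other and not the seed AUUGCAC of miR-25-3p.
hsa-miR-93-5p: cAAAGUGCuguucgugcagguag
hsa-miR-106b-5p: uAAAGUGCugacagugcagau

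Array medians lay between 6.02 and 6.07 on the log2 scale. Gene values correlated at 0.991 to 0.995 between arrays of one group and at 0.990 to 0.994 between arrays of different groups, and control replicate 1 had the lowest mean correlation with the others, 0.992. Of the epithelial markers fixed for the line, 9 were measured, with a median of 9.65 in control arrays. The medians of fibroblast, leukocyte and endothelial markers were 4.57, 3.49 and 3.87. The ranges of the lists overlapped. In control arrays epithelial markers ran from 6.10 (CDH1) to 12.03 and fibroblast markers from 2.28 to 6.39 (COL1A1). Leukocyte markers ran from 2.55 to 8.84 (LYZ) and endothelial markers from 3.40 to 5.54. Probes differ in brightness, so these values do not rank different genes. MCM7 was at 8.42 ± 0.15 in control and 8.49 ± 0.087 in inhibitor arrays (SD, n = 3 each).

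No CDK inhibitor gene passed the test. In limma's fit over all 18656 genes with Benjamini-Hochberg adjustment, 0 of 8 had an adjusted p under 0.05, against 0% of all genes, and their adjusted p ranged from 0.79 to 0.996. At an unadjusted p under 0.05 the count was also 0 of 8, against 6.12% of all genes. The differences, inhibitor minus control on the log2 scale throughout, ran from -0.14 for CDKN2B to 0.057 for CDKN1A. Their median was -0.011, beside 0.0021 for all genes, with 3 positive and 5 negative. A p above the threshold does not show equal levels, so each difference is given with its 95% interval from the fit.

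**Figure D1:**
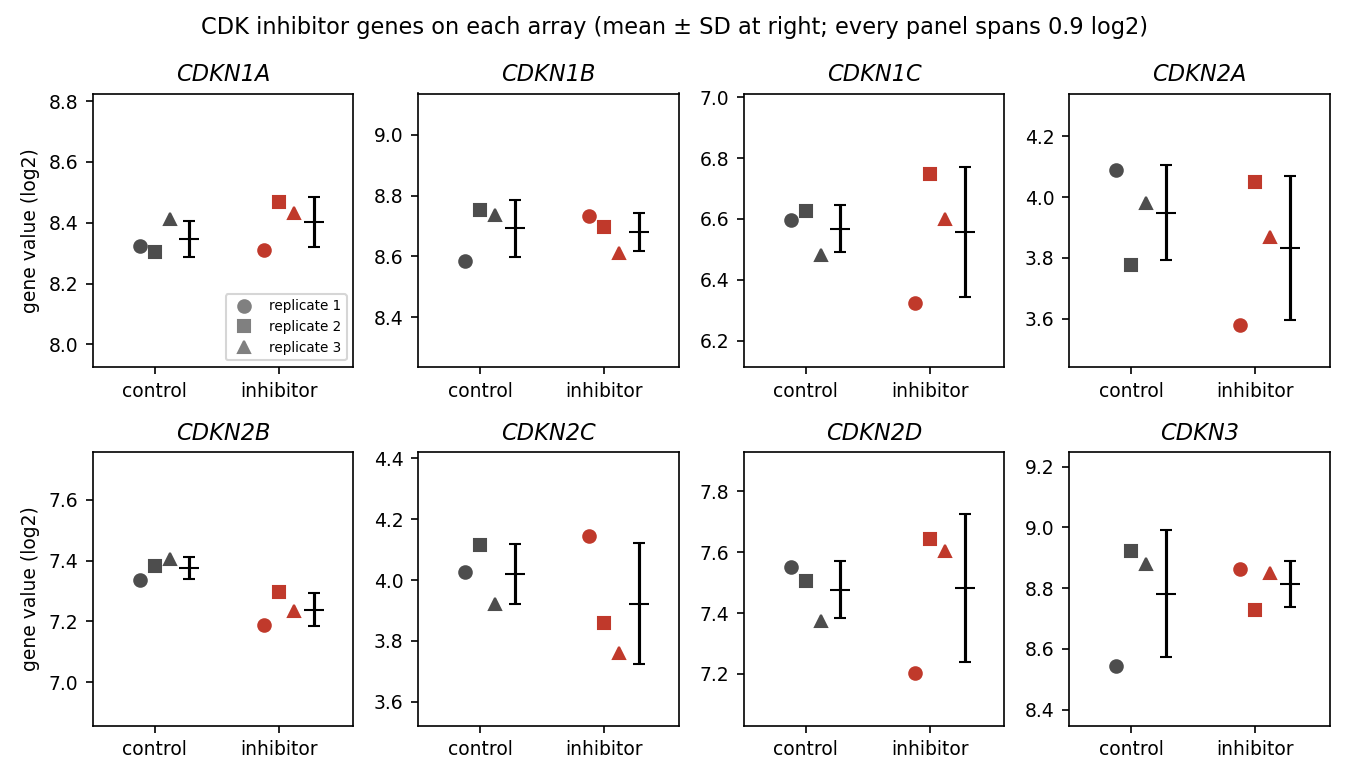
Gene value (mean log2 of the probe sets) of each CDK inhibitor gene on each array, with controls in grey, inhibitor arrays in red, symbols for replicate numbers, and mean ± SD (n = 3) as bars. In the CDKN2B panel all 3 inhibitor arrays lie below all 3 control arrays, and in the other 7 panels the groups overlap.

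**Figure D2:**
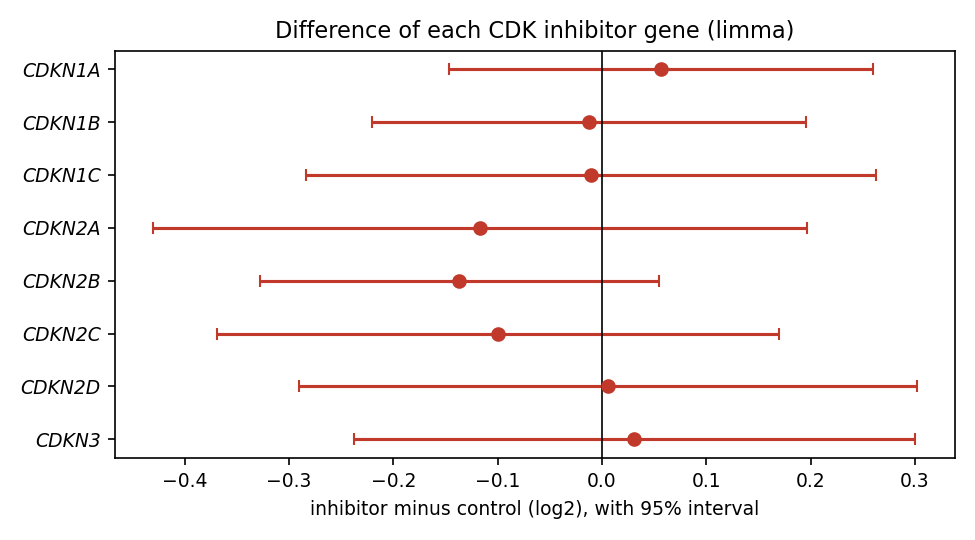
Difference of each gene, inhibitor minus control on the log2 scale, as points with 95% intervals from limma. All 8 intervals include 0, and that of CDKN2B reaches least far above it, to 0.055.

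CDKN1C encodes p57, a Cip/Kip inhibitor expressed mainly from the maternal allele. Its gene value was 6.60, 6.63 and 6.48 on control replicates 1 to 3 and 6.33, 6.75 and 6.60 on inhibitor replicates 1 to 3. The groups overlapped, and the inhibitor group held both the lowest and the highest array. Means were 6.57 ± 0.077 in control and 6.56 ± 0.21 in inhibitor arrays (SD, n = 3 each). The difference was -0.011 (SE 0.12, adjusted p = 0.99 in limma), with a 95% interval from -0.28 to 0.26. In linear terms the interval spans 0.821-fold to 1.20-fold, so a smaller rise would not have been told from no change. The interval is not adjusted for the 18656 genes tested, so a rise above 1.20-fold could also have gone uncalled. The most positive difference of any gene, 2.07 on the log2 scale, was not called. An exact two-sided permutation test of the arrays gave p = 0.9, where 3 against 3 arrays cannot go below 0.1. The sign rested on single arrays: without inhibitor replicate 1 the difference was 0.11 (adjusted p = 0.92), without control replicate 2 it was 0.019 and without control replicate 1 it was 0.0039.

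The 6 probe sets of CDKN1C did not move together. Of these, 2 had a positive and 4 a negative difference. The brightest read 9.16, 8.93 and 8.87 in control and 8.87, 9.11 and 8.71 in inhibitor arrays, a difference of -0.090 (SE 0.17). The dimmest read 3.37, 4.61 and 4.36 in control and 4.52, 4.97 and 4.97 in inhibitor arrays, a difference of 0.71 (SE 0.35). These values put control replicate 1 far below the other arrays, and the groups still overlapped. Another probe set read 6.34, 6.27 and 6.11 in control and 4.78, 6.02 and 6.15 in inhibitor arrays, a difference of -0.59 (SE 0.38) set mostly by inhibitor replicate 1. Leaving out each probe set in turn moved the gene's difference between -0.15 and 0.11. In 1 probe set all inhibitor arrays lay above all controls, at 6.91, 6.93 and 6.93 against 6.87, 6.69 and 6.77.

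CDKN1A encodes p21, the Cip/Kip inhibitor that p53 induces. It was at 8.32, 8.30 and 8.41 in control and 8.31, 8.47 and 8.43 in inhibitor arrays. The groups overlapped. The difference of 0.057 (SE 0.089, 95% interval -0.15 to 0.26, adjusted p = 0.91 in limma) was the most positive of the 8. It was 0.10 without inhibitor replicate 1 and 0.025 without inhibitor replicate 2. Its sign came from 1 dim probe set, at 5.12, 4.42 and 5.60 in control and 5.69, 5.60 and 6.06 in inhibitor arrays. Without that probe set the difference was -0.057. The brightest probe set of CDKN1A, at 11.55, 11.68 and 11.58 in control and 11.50, 11.64 and 11.55 in inhibitor arrays, differed by -0.040 (SE 0.13).

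CDKN1B encodes p27, whose level is set largely by SKP2-directed degradation of the protein. Its values were 8.59, 8.75 and 8.74 in control and 8.73, 8.70 and 8.61 in inhibitor arrays. The groups overlapped, and control replicate 1 was the lowest of the 6 arrays. The difference was -0.012 (SE 0.091, 95% interval -0.22 to 0.20, adjusted p = 0.99 in limma), with 3 probe sets positive and 3 negative. The brightest of the 6 was lower in every inhibitor array, at 10.66, 10.56 and 10.55 in control and 10.34, 10.37 and 9.75 in inhibitor arrays. That probe set differed by -0.44 (SE 0.21, adjusted p = 0.82 in limma over all probe sets), and without it the gene's difference was 0.073.

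Among the INK4 genes, CDKN2B was the one member whose groups of arrays did not overlap. It encodes p15, which TGF-beta induces. It was at 7.34, 7.38 and 7.41 in control and 7.19, 7.30 and 7.23 in inhibitor arrays. Every inhibitor array was below every control array, a pattern held by 7.68% of all genes. Counted in either direction, the groups did not overlap in 1 of 8 members (12.5%), against 12.9% of all genes. Means were 7.38 ± 0.036 and 7.24 ± 0.055 (SD, n = 3 each). The difference was -0.14 (SE 0.084, 95% interval -0.33 to 0.055), which did not pass the threshold (adjusted p = 0.79 in limma). The exact permutation test gave p = 0.1, the smallest it can give here. It gives this value for any gene whose groups do not overlap, so it adds nothing to that pattern.

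All 6 probe sets of CDKN2B had a negative difference, from -0.26 to -0.023. Their means over the 6 arrays lay between 6.60 and 8.42, the narrowest such range among the 8 genes. One of them, at 8.20, 8.28 and 8.41 in control and 8.0, 8.03 and 8.09 in inhibitor arrays, was lower in every inhibitor array by itself. In the other 5 the groups overlapped. Leaving out each probe set in turn kept the gene's difference between -0.16 and -0.11. Probe sets of 1 gene read the same RNA samples and are not replicates.

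CDKN2A encodes p16 and, in another reading frame, ARF, which stabilises p53. It was at 4.09, 3.78 and 3.98 in control and 3.58, 4.05 and 3.87 in inhibitor arrays. The groups overlapped, and inhibitor replicate 1 was the lowest of the 6 arrays. The difference was -0.12 (SE 0.14, 95% interval -0.43 to 0.20, adjusted p = 0.88 in limma). Its 9 probe sets ranged in mean value from 1.54 to 7.02. One of them had the smallest p of all 65 member probe sets. It read 4.34, 4.29 and 4.68 in control and 3.13, 2.81 and 3.63 in inhibitor arrays. That difference of -1.25 (SE 0.25) had an unadjusted p of 0.0025 and an adjusted p of 0.76 in limma over all probe sets. Without it the gene's difference was 0.025, and the brightest probe set differed by 0.22 (SE 0.33), with overlapping groups. With the median of the 9 probe sets as the gene value, the difference was -0.49 (adjusted p = 0.83 in limma).

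CDKN2C, which encodes p18, was also dim, at 4.03, 4.12 and 3.92 in control and 4.14, 3.86 and 3.76 in inhibitor arrays. Inhibitor replicate 1 was the highest of the 6 arrays, and the groups overlapped. The difference was -0.099 (SE 0.12, 95% interval -0.37 to 0.17, adjusted p = 0.89 in limma). It was -0.21 without inhibitor replicate 1 and -0.019 without inhibitor replicate 3. Of 10 probe sets, 6 were positive and 4 negative. The most negative, at 4.05, 4.49 and 2.30 in control and 4.33, 1.42 and 1.09 in inhibitor arrays, varied by over 2 log2 units within each group. Without it the gene's difference was 0.038. The values of CDKN2A and CDKN2C lay between the 5th and the 95th percentile, 1.73 and 4.29, of 348 olfactory receptor genes, which are taken as silent here. Probes differ in brightness, so this is no detection call, and levels of different genes were not ranked.

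CDKN2D, which encodes p19, was at 7.55, 7.51 and 7.37 in control and 7.20, 7.64 and 7.60 in inhibitor arrays. As with CDKN1C, the inhibitor group held both the lowest and the highest array. The difference was 0.0058 (SE 0.13, 95% interval -0.29 to 0.30, adjusted p = 0.996 in limma), with 4 probe sets positive and 4 negative. The probe set with the most negative difference was at 5.94, 5.74 and 6.11 in control and at 2.91, 5.66 and 6.55 in inhibitor arrays. That low value of inhibitor replicate 1 gave a difference of -0.89 (SE 0.91), and without the probe set the gene's difference was 0.13. The brightest, at 12.98, 12.77 and 12.62 in control and 12.95, 12.90 and 12.69 in inhibitor arrays, differed by 0.057 (SE 0.16). Inhibitor replicate 1 was the lowest of all 6 arrays for CDKN1C, CDKN2A, CDKN2B and CDKN2D.

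CDKN3 encodes a phosphatase that removes the activating phosphate of CDK2 and whose message is periodic in the cell cycle. Its gene value was 8.54, 8.92 and 8.88 in control and 8.86, 8.73 and 8.85 in inhibitor arrays. Control replicate 1 was the lowest array, and the groups overlapped. The difference was 0.031 (SE 0.12, 95% interval -0.24 to 0.30, adjusted p = 0.97 in limma).

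The probe sets of CDKN3 disagreed, with 1 far against the others. Probe set 7974411 read 9.65, 9.55 and 10.12 in control arrays and 9.53, 6.67 and 5.31 in inhibitor arrays. Inhibitor replicate 1 was just below the controls, and the other 2 inhibitor arrays were lower by several log2 units. The difference was -2.60 (SE 1.03, unadjusted p = 0.045, adjusted p = 0.80 in limma over all probe sets). Of the other 12 probe sets, 10 were positive and 2 negative. Their mean was 8.45, 8.87 and 8.78 in control and 8.81, 8.90 and 9.14 in inhibitor arrays, with overlapping groups. The difference over these 12 was 0.25, a description only, since the probe set was set aside after its values were seen.

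**Figure D3:**
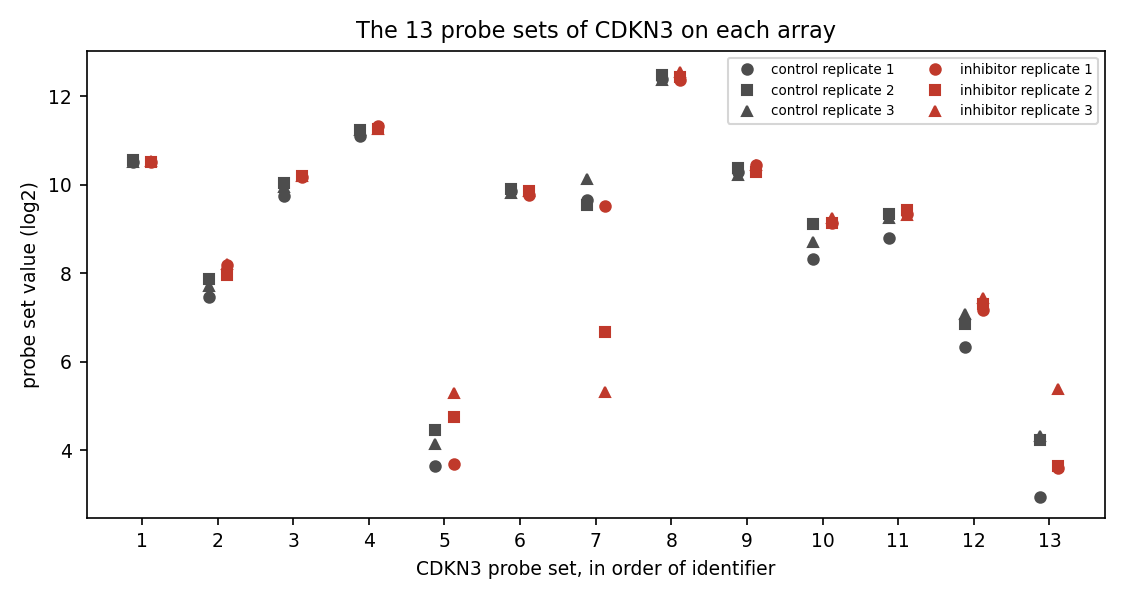
Log2 value of each of the 13 CDKN3 probe sets, in order of identifier, on each control (grey) and inhibitor (red) array. At position 7, probe set 7974411 falls to 6.67 and 5.31 on inhibitor replicates 2 and 3, and control replicate 1 is often the lowest point elsewhere.

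In 5 of the 13 CDKN3 probe sets all inhibitor arrays lay above all control arrays, against 5.89% of all probe sets. The one with the smallest p among them read 7.46, 7.87 and 7.71 in control and 8.19, 7.95 and 8.21 in inhibitor arrays, a difference of 0.44 (SE 0.17, adjusted p = 0.80 in limma over all probe sets). Another read 6.34, 6.86 and 7.07 in control and 7.17, 7.30 and 7.45 in inhibitor arrays, a difference of 0.55 (SE 0.23). Its brightest probe set, at 12.39, 12.48 and 12.38 in control and 12.37, 12.43 and 12.55 in inhibitor arrays, differed by 0.033 (SE 0.13). Without control replicate 1 the difference of the gene was -0.088 (adjusted p = 0.85 in limma).

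Over all 65 member probe sets, limma called 0, against 0% of all 224320 probe sets. At an unadjusted p under 0.05 there were 5 of 65 (7.69%), against 6.21% of all probe sets. Of these 5, 3 were higher (3.11% of all probe sets) and 2 lower (3.09%). Arrays of the groups did not overlap in 13 of 65 (20%), against 12.2% of all probe sets. Of these 13, 8 were higher (5.89% of all probe sets) and 5 lower (6.32%). CDKN3 alone supplied 6 of those 13. The remaining 7 fell on CDKN1B, CDKN1C, CDKN2A, CDKN2B, CDKN2C and CDKN2D, and none on CDKN1A.

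**Figure D4:**
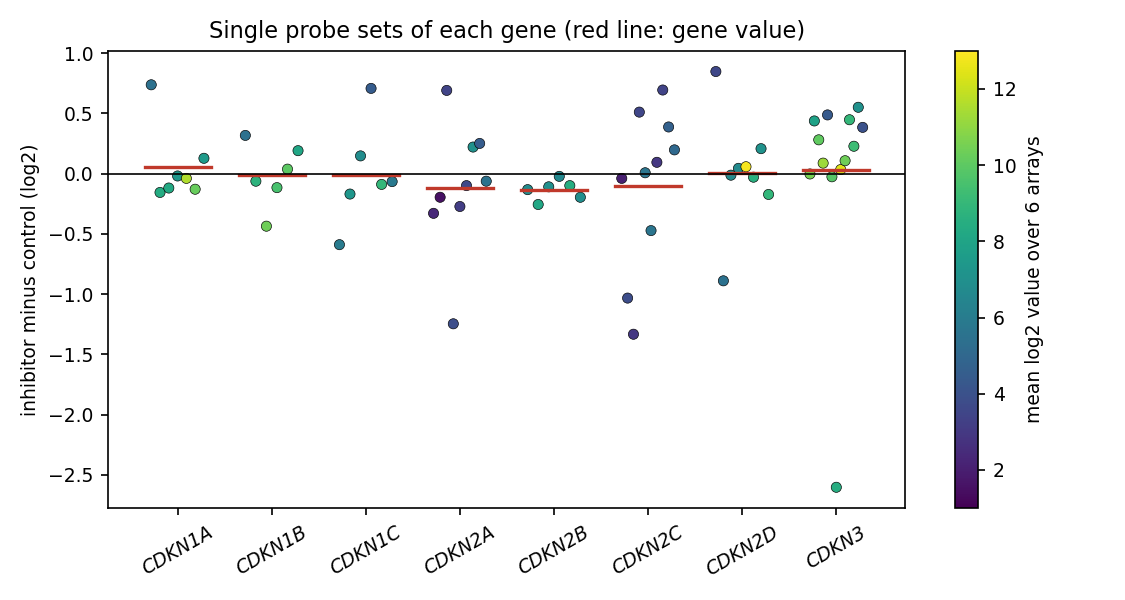
Difference of each of the 65 probe sets, inhibitor minus control on the log2 scale, by gene and in order of identifier. Colour gives the mean log2 value over the 6 arrays and red lines the gene's difference; the CDKN2B points are all below 0, and 1 CDKN3 point lies at -2.60.

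The genes whose pattern over the 6 arrays was most like that of CDKN1C were found by the root mean square difference of centred log2 values. Candidates were 7196 genes with at least 4 probe sets that varied at least as much. The nearest were SYNGR3, at 0.042, SYT6 at 0.046, CDKN2D at 0.046, GNG11 at 0.047 and NAT8L at 0.048, beside a median of 0.219 over the candidates. In all 5, as in CDKN1C, inhibitor replicate 1 was the lowest array and inhibitor replicate 2 the highest. The genes were picked for nearness to this profile, so the shared extremes follow from the choice. The median over the candidates is no yardstick for genes picked as the nearest. For CDKN1C these 2 arrays lay at -0.24 and 0.18 around its mean, and for CDKN2D at -0.28 and 0.16. The 6 arrays are the only points behind this likeness.

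Other genes of the pathway were read from lists in the same fit, and none passed the threshold in either direction, against 0% of all genes. Among 13 CDKs and cyclins that the inhibitors act on, 7 were positive and 6 negative, with a median difference of 0.047 beside 0.0021 for all genes. That median ranged from -0.034 to 0.051 when 1 array was left out. It was negative without control replicate 1 (-0.034) or inhibitor replicate 1 (-0.0005). With the brightest probe set it was -0.02, without the dimmest 50% of genes -0.0081, and with the median of probe sets 0.12. CDK1, the mitotic kinase, was at 8.32 ± 0.29 in control and 8.67 ± 0.12 in inhibitor arrays (SD, n = 3 each), a difference of 0.35 (SE 0.15). CCNB1, its cyclin, had 0.13 (SE 0.091). The INK4 target CDK6 had -0.23 (SE 0.12) and CCND1, one of the D-type cyclins that activate it, -0.20 (SE 0.094). These 4 had adjusted p of 0.79 to 0.81 in limma.

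Of 10 genes of the RB and E2F families, which act downstream of these kinases, 8 were positive and 2 negative, with a median of 0.073. Leaving out 1 array gave medians from 0.052 (without inhibitor replicate 3) to 0.13 (without inhibitor replicate 2). The median was 0.038 with the brightest probe set and 0.175 with the median of probe sets. E2F4, a factor that represses with RB relatives in resting cells, was at 8.92 ± 0.043 in control and 8.70 ± 0.034 in inhibitor arrays (SD, n = 3 each) and differed by -0.22 (SE 0.083). The other negative member was E2F3, an activating factor, at -0.040 (SE 0.11). E2F5 had 0.18 (SE 0.12) and RBL1, the RB relative p107, 0.15 (SE 0.10).

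Of 14 ubiquitin ligase parts linked to turnover of the inhibitors, 9 were positive and 5 negative, with a median of 0.035 that turned to -0.025 without control replicate 1. SKP1, the adaptor of the SCF ligases, was at 7.98 ± 0.070 in control and 8.28 ± 0.13 in inhibitor arrays (SD, n = 3 each), a difference of 0.30 (SE 0.099, unadjusted p = 0.015, adjusted p = 0.79 in limma). The RING subunit RBX1 had 0.18 (SE 0.12). RNF123, the ligase subunit KPC1 that acts on p27, had -0.20 (SE 0.092), and the CDK-binding protein gene CKS2 had -0.12 (SE 0.10).

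Of 19 transcriptional regulators of the inhibitors, 8 were positive and 11 negative, with a median of -0.016. It was -0.11 without control replicate 1, -0.092 without inhibitor replicate 2, -0.053 without inhibitor replicate 1 and 0.00083 without control replicate 3. In 7 of the 19 all inhibitor arrays lay below all controls, against 7.68% of all genes, and in 0 above, against 5.2%. The list was chosen with earlier results of these data known, so these counts are a description only. FOXO4, a forkhead factor that can induce CDKN1B, went from 6.03 ± 0.12 to 5.59 ± 0.13 (SD, n = 3 each). That difference of -0.44 (SE 0.11) had an unadjusted p of 0.0026 and an adjusted p of 0.79 in limma. SP1, which binds GC-rich promoters, had -0.20 (SE 0.090). On the other side were the runt-domain factor RUNX3 at 0.23 (SE 0.11) and the TGF-beta mediator SMAD2 at 0.18 (SE 0.15). The 25 targets of p53 other than CDKN1A had a median of -0.012, with 11 positive and 14 negative. That median was positive without control replicate 2 (0.034), control replicate 3 (0.0092) or inhibitor replicate 2 (0.026), in a range that began at -0.028 without inhibitor replicate 3. The p53 ligase MDM2 had 0.23 (SE 0.11) and the polo-like kinase PLK2 0.18 (SE 0.090), against its relative PLK3 at -0.20 (SE 0.10) and the antiproliferative gene BTG2 at -0.15 (SE 0.088).

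The 22 periodic mitotic genes, the class in which CDKN3 is expressed, had 20 positive and 2 negative differences and a median of 0.073. Among all 18656 genes 9427 were positive. Genes of 1 list were read on the same 6 arrays and are not replicates. The list was also chosen with earlier results known, so its count is a description only. CENPE, a kinetochore motor, had 0.33 (SE 0.13), and CDK1 is also in this list. The negative ones were PLK1 at -0.047 (SE 0.11) and UBE2C at -0.026 (SE 0.094). The mean of the list was 8.92, 9.06 and 9.07 in control and 9.11, 9.08 and 9.13 in inhibitor arrays. The lowest inhibitor array was just above the highest control array. Control replicate 1, the lowest array for CDKN3, was also the lowest here, and without it the median difference of the list was 0.032. That median was 0.025 with the brightest probe set and 0.1775 with the median of probe sets.

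The last lists held genes on the chromosomes of CDKN1C and of CDKN2A and CDKN2B. Of 8 measured genes of the imprinted region around CDKN1C, 3 were positive and 5 negative, with a median of -0.024, which was 0.0016 without control replicate 1 and -0.053 without control replicate 3. H19, an imprinted noncoding RNA, was at 12.44 ± 0.065 in control and 12.22 ± 0.054 in inhibitor arrays (SD, n = 3 each) and differed by -0.22 (SE 0.087, adjusted p = 0.79 in limma). The growth factor gene IGF2 had 0.28 (SE 0.19), TSSC4 0.11 (SE 0.12) and PHLDA2, a placental growth regulator, -0.082 (SE 0.094). Of genes listed from the chromosome of CDKN2A and CDKN2B, the methylthioadenosine phosphorylase gene MTAP had 0.059 (SE 0.097). TUSC1 had 0.014 (SE 0.18) and DMRTA1 -0.16 (SE 0.092). Their distances from CDKN2A and CDKN2B were not measured here.

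**Figure D5:**
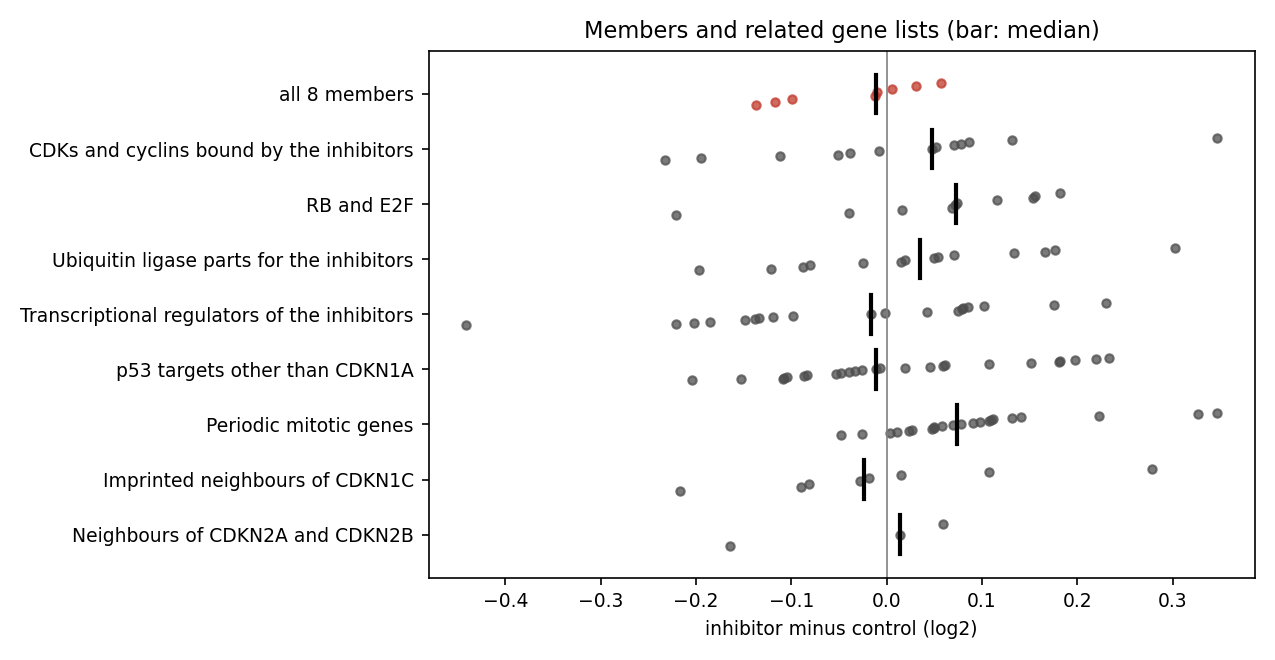
Difference of each gene, inhibitor minus control on the log2 scale, for the 8 CDK inhibitor genes (red) and the related lists (grey), with black bars at the medians. The 8 lie between -0.14 and 0.057. The list of periodic mitotic genes has 20 of 22 points above 0, beside 9427 of all 18656 genes.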

How the data were processed

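Labelled cDNA from 500 ng of total RNA per sample was read on Affymetrix Human Gene 1.0 ST arrays. The authors deposited log2 values for 257430 probe sets on 6 arrays. Per the submitters' processing notes the tools were RMA, Transcriptome Analysis Console and Affymetrix Expression Console; versions and settings were not given in the sources used here. RMA gives arrays nearly one distribution, so it hides a shift common to most genes.

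The platform annotation gave 1 gene for 224320 probe sets, several for 10159 and none here for 22951. Of 18701 symbols, 2574 were updated through RefSeq synonyms; member symbols were used as given. Gene values (median 10 probe sets per gene) were compared between groups in limma 3.58.1 under R 4.3.3 (lmFit, eBayes), with no block and with adjustment over all 18656 genes; single probe sets likewise. The fit was also run on simulated arrays, with 200 changed genes in each of 20 simulations. Their outcome is not reported here, so they say nothing about the precision of these arrays. The labels call the samples biological replicates; 3 arrays per group limit the precision.

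The 8 members and all lists were chosen with earlier results of these data known. The text names all members, MCM7, the 5 genes nearest to CDKN1C and, from each pathway list, up to 2 positive and 2 negative genes of smallest p. Of the listed genes, 5 were not analysed here. The alternatives were a replicate block, single arrays left out, other normalizations, centring, filters on dim genes or probe sets, other summaries of probe sets and other variance estimates; array weights were added after seeing the data.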

Additional observations from a re-analysis of the deposited data

How the results depend on the processing

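Under each of the 18 alternatives limma called 0 members, 0 lower genes and, with 1 exception, 0 higher genes; probe sets of members also gave 0 calls in the 13 alternatives run on them. The exception was RGPD4 without control replicate 3, so leaving out arrays gave 0 to 1 higher genes. An unadjusted p under 0.05 was held by 4.59% (without inhibitor replicate 2) to 9.05% (array weights) of the genes tested in each alternative, and among members only CDKN2A with the median of probe sets did (-0.49). CDKN2B alone kept its sign in all 18 alternatives, from -0.17 to -0.08. Leaving out arrays gave differences of -0.11 to 0.11 for CDKN1C, 0.025 to 0.10 for CDKN1A, -0.066 to 0.023 for CDKN1B, -0.21 to -0.019 for CDKN2C, -0.22 to 0.010 for CDKN2A, -0.074 to 0.15 for CDKN2D and -0.088 to 0.10 for CDKN3. CDKN1C also turned with cyclic loess normalization (0.0081). With the median of probe sets CDKN1A turned to -0.15 and CDKN3 to -0.25. With the brightest probe set CDKN1A turned to -0.040, CDKN2A to 0.22 and CDKN2C to 0.0067. Without the dimmest 30% of probe sets CDKN2A turned to 0.14, CDKN2C to 0.029, CDKN2D to -0.11 and CDKN3 to -0.042. With array weights CDKN2D turned to -0.0077 and CDKN3 to -0.050. The cause was not tested. The replicate block gave 0 called members, 0 higher and 0 lower genes and a CDKN1C difference of -0.011 (SE 0.11), and it left every call as it was. The arrays were treated as unpaired because the labels give 2 groups and no covariate. Across genes, deviations from the group means correlated at -0.032, -0.040 and 0.17 between arrays of the same number. With 3 arrays per group these values cannot exclude a pairing. Without the dimmest 30% of genes, or 50%, CDKN2A and CDKN2C dropped out and had no value.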

Other observations

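A further 3 probe sets name both MTAP and CDKN2BAS, an older symbol of the antisense RNA of the CDKN2B locus, and were used in no gene value. The first read 3.77, 2.96 and 3.87 in control and 3.08, 2.93 and 3.25 in inhibitor arrays. The second read 5.11, 4.77 and 5.23 in control and 5.47, 5.28 and 4.78 in inhibitor arrays. The third read 3.97, 3.16 and 3.34 in control and 3.06, 4.07 and 3.75 in inhibitor arrays. The groups overlapped in all 3, and a probe set naming both genes cannot tell them apart.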
